A study of Capra hircus with 20 samples.

Results

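Myelin is the sheath of stacked membrane that oligodendrocytes wrap around axons in the brain, and it speeds the conduction of nerve impulses. The sheath is made of lipid-rich membrane pressed together by small basic proteins, joined by tight junctions at its layers, tied to the axon by adhesion molecules and maintained by enzymes of the cytoplasmic channels and of lipid supply. In the hypothalamus, myelinated tracts such as the fornix and the optic tract run through or beside the nuclei that control hormone release. Described here are 9 genes that mature oligodendrocytes use to build and keep myelin (MBP, MOG, MAG, MOBP, CNP, CLDN11, MAL, OPALIN and ASPA), chosen by symbol from the 21071 genes with deposited values. All 9 were matched to a gene ID and all 9 were among the 16771 genes that reached 0.1 FPKM in 5 or more libraries and were tested. FPKM is the number of fragments of a gene per kilobase of its exons, scaled to the number of mapped reads of the library.

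The study collected the hypothalamus from 20 healthy female Jining grey goats of one breeding farm under shared feeding, without treatment or genetic change, to follow the hypothalamus from birth to sexual maturation. There were 5 goats at each of 4 ages: day 1 (D1), day 60 (M2), day 120 (M4) and day 180 (M6). Each goat gave 1 strand-specific library depleted of rRNA. The values of all libraries come from whole dissected tissue, so fewer oligodendrocytes and less RNA per oligodendrocyte cannot be told apart, and the number of reads behind a value is unknown.

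The tissue label was checked against 15 genes of hypothalamic neurons and their progenitors. Their summed level was between 1.46 and 918 FPKM per library and was under 20 FPKM in 10 of the 20 libraries, while RAX, GHRH and KISS1 did not exceed 0.839 FPKM in any library. Of 8 genes that mark cortex, striatum or thalamus, the summed level was over 80 FPKM in 4 libraries. These were D1 replicate 4 with PPP1R1B, a gene of striatal neurons, at 226 FPKM, M6 replicate 2 with PPP1R1B at 102 FPKM, M4 replicate 1 with the cortical gene NEUROD6 at 23.7 FPKM, and M4 replicate 2 with RORA at 79.8 FPKM. The other 16 libraries had between 16.9 and 68.1 FPKM for this list. Of the 4, M6 replicate 2 and M4 replicate 2 also had 100 and 23.3 FPKM summed over the 15 hypothalamus genes. D1 replicate 4 and M4 replicate 1 had 8.27 and 4.08 FPKM. A later setting that keeps libraries with at least 20 FPKM of these hypothalamus genes therefore holds M6 replicate 2 and M4 replicate 2. In M2 replicate 3 the gene KLHDC1 alone took 23.9% of all FPKM, and every other gene of that library shared the rest. KLHDC1 was also the highest gene of M6 replicate 3, with 9.83% of its FPKM. Results are therefore given with and without the 4 libraries high in markers of other brain regions, a set chosen after the data were seen.

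The 9 myelin genes were abundant at every stage, including the first day after birth. Their summed level had medians of 4752, 2040, 2680 and 2677 FPKM at D1, M2, M4 and M6. The range of the summed level was 337 to 4929 FPKM at D1, 171 to 4053 at M4 and 284 to 4031 at M6. Each of these was wider than the range of the medians. At M2 the range was the narrowest, 789 to 2401 FPKM. The 9 genes together took between 0.0559% (M4 replicate 1) and 1.56% (M4 replicate 3) of all FPKM of a library. None of the 9 passed the test in any comparison of stages. For 6 of the 9 (MBP, MOG, MAG, MOBP, CNP and CLDN11) the mean on the log2 scale was below that of D1 at each later stage, although for MOG at M6 by only 0.02, a sign that turned under median-ratio scaling and quantile normalization. The sign for MBP turned at M4 without the 4 libraries high in markers of other regions (0.0087) and without M4 replicate 1 (0.0409). Without M6 replicate 4 the signs of MBP (0.42), MAG (0.22) and MOG (0.62) turned at M6. For CLDN11 and CNP, 4 of the 5 D1 goats stood above every goat of the later stages, while D1 replicate 4 was the fourth lowest of the 20.

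**Figure D1:**
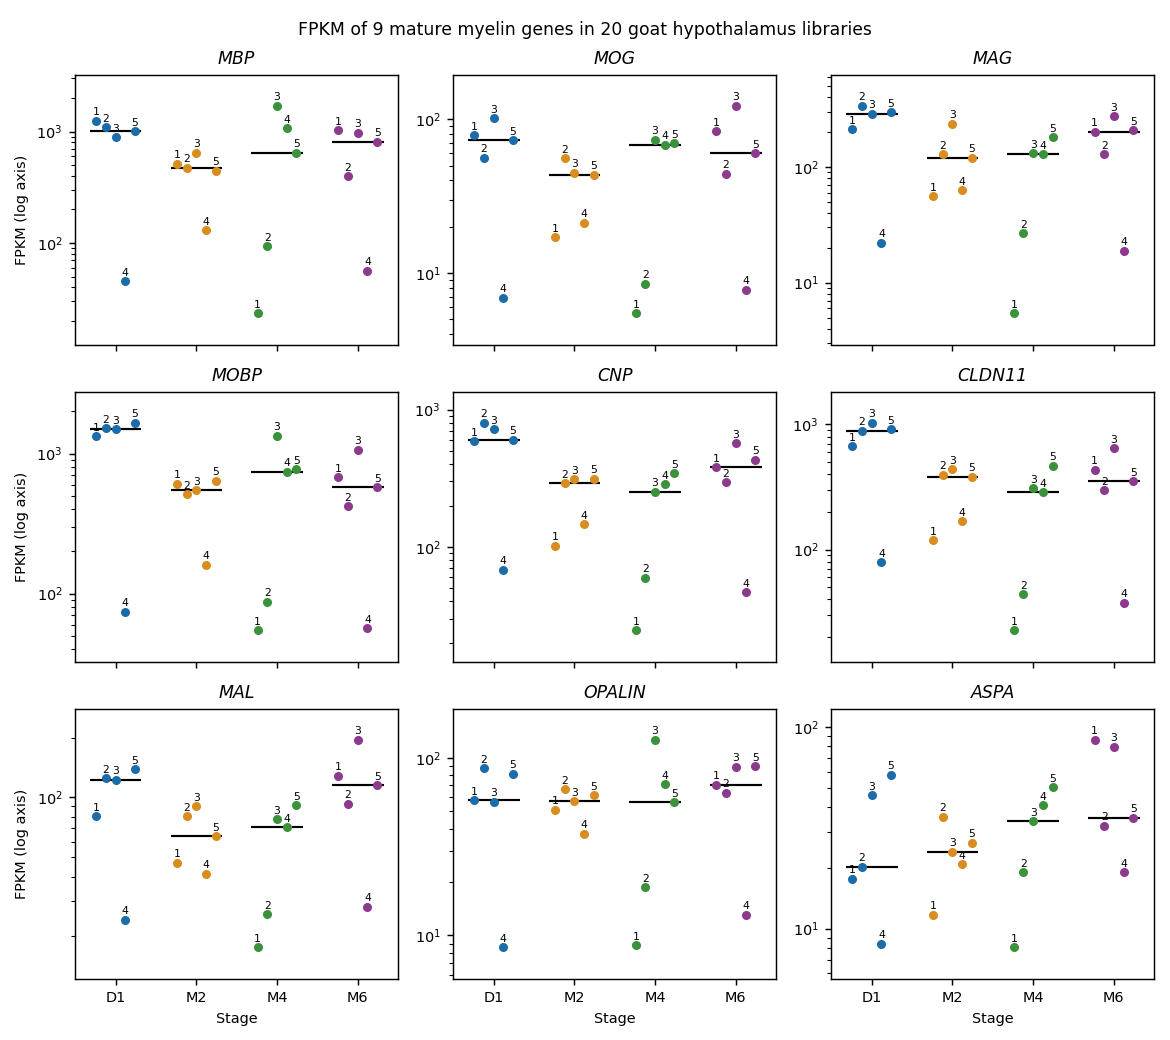
FPKM (log axis) of each of the 9 myelin genes in the 20 libraries by stage, with 5 goats per stage, the replicate number above each point and the median as a bar. D1 replicate 4, M4 replicate 1 and M6 replicate 4 lie at the bottom of their stage for every gene, and the summed level of the 9 genes spans 171 to 4929 FPKM.

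MBP (myelin basic protein) encodes the protein that holds the cytoplasmic faces of the membrane together in compact myelin, and its gene lies on chromosome 24 from 2237320 to 2346019 of ARS1.2. At D1, MBP was at 1251, 1090.1, 890.1, 45.6 and 1011 FPKM in replicates 1 to 5. At M2 it was at 515, 474, 649, 130.3 and 444 FPKM. Thus 4 of the 5 D1 libraries were above every M2 library, and D1 replicate 4 was below all of them. MBP at M4 was at 23.4, 94.0, 1706, 1073 and 648 FPKM, which gave the widest spread of any of the 9 genes in a stage, with the highest library 72.8 times the lowest. At M6 it was at 1022, 398, 981, 56.5 and 810.3 FPKM. The medians ran from 1011 FPKM at D1 to 810 at M6, 648 at M4 and 474 at M2, but the ranges of all 4 stages overlapped. The mean of the later stages was 0.58 below D1 on the log2 scale of the fit, log2(FPKM + 0.1), (SE 0.89, 95% interval −2.44 to 1.28, limma adjusted p = 0.834), an interval that covers both directions. The alternatives put it between −2.11 (mapping rate as a covariate with the replicate block) and −0.27 (without M4 replicate 1).

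MOBP encodes a small basic protein of compact myelin in the central nervous system, on chromosome 22 from 12584139 to 12628591. At D1 it was at 1336, 1521, 1499, 74.2 and 1663 FPKM. At M2, MOBP was at 611, 511, 550.1, 161 and 639 FPKM. Again 4 of the 5 D1 libraries stood above every M2 library, and they did so above every M6 library too. At M4 the levels were 54.7, 87.7, 1342, 742 and 773 FPKM. At M6 they were 677, 421, 1070.1, 56.6 and 575 FPKM. The highest M4 library reached the level of the D1 libraries, while the medians of 550, 742 and 575 FPKM at M2, M4 and M6 were all below the 1499 FPKM of D1. The difference of the later stages from D1 was −1.09 (SE 0.79, 95% interval −2.73 to 0.56, adjusted p = 0.606).

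CLDN11 encodes the claudin of the tight junctions between the layers of the sheath, on chromosome 1 from 96537063 to 96551940. At D1, CLDN11 was at 669, 889, 1032, 78.9 and 912 FPKM. At M2 it was at 119, 396, 439, 169 and 381 FPKM. At M4 the 5 values were 22.6, 43.9, 309.6, 288 and 466 FPKM. The highest values of M2 and M4, 439 and 466 FPKM, were below 4 of the 5 D1 values. At M6, CLDN11 was at 436, 298, 648, 37.5 and 351 FPKM, so that its highest M6 library was also below the same 4 D1 libraries. The stages followed the order D1, M2, M6 and M4 by their medians (889, 381, 351 and 288 FPKM), and the ranges of neighbours in that order overlapped, that of D1 only through its replicate 4. CLDN11 had the largest difference from D1 of the 9 genes, −2.01 at M4 (SE 0.88, 95% interval −3.84 to −0.18). Its unadjusted p there was 0.0326 and its adjusted p was 0.533, and for the later stages together the difference was −1.36 (SE 0.72, 95% interval −2.85 to 0.13, adjusted p = 0.463).

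MAL encodes a proteolipid of lipid-rich membrane domains that takes part in sorting proteins to myelin, on chromosome 11 from 1779369 to 1803424. At D1 it was at 80.3, 125, 123, 24.3 and 138 FPKM. At M2, MAL was at 46.9, 80.3, 90.3, 41.3 and 64.0 FPKM, and 3 of the 5 D1 libraries were above all of these. At M4 it was at 17.6, 25.8, 77.7, 70.7 and 91.6 FPKM. At M6 it was at 129, 93.1, 195, 28.2 and 115 FPKM, with 1 library above every D1 library. The spread was narrower than for the other structural genes, and the difference of the later stages from D1 was −0.37 (SE 0.44, 95% interval −1.29 to 0.55, adjusted p = 0.777).

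MOG encodes an immunoglobulin-like protein of the outermost surface of the sheath. Its gene lies on chromosome 23 from 21112434 to 21125296, where its span overlaps that of ZFP57, so reads of the overlap could not be assigned here. At D1, MOG was at 78.7, 56.3, 102, 6.91 and 73.1 FPKM. At M2 it was at 17.0, 56.1, 44.9, 21.3 and 43.6 FPKM. At M4 it was at 5.46, 8.52, 73.9, 68.4 and 70.2 FPKM, and 3 of these libraries lay close together while the other 2 were lower than any M2 library. At M6 it was at 83.6, 44.3, 123, 7.77 and 60.0 FPKM, with the highest value of all 20 libraries in replicate 3. The means at D1 and M6 differed by 0.02 on the log2 scale (95% interval −1.77 to 1.73 for M6 vs. D1, adjusted p = 0.996). The difference of the later stages from D1 was −0.43 (SE 0.68, adjusted p = 0.841).

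MAG encodes the adhesion molecule of the innermost membrane that faces the axon, on chromosome 18 from 46829145 to 46845512. At D1 it was at 211, 337, 287, 22.1 and 297 FPKM. At M2, MAG was at 55.7, 128, 235, 62.7 and 119.8 FPKM. At M4 it was at 5.43, 26.7, 132, 129 and 181 FPKM, and 4 of the 5 D1 libraries were above every one of these. At M6 it was at 201, 128, 275, 18.8 and 208 FPKM. The median of 287 FPKM at D1 was followed by 201 at M6, 129 at M4 and 120 at M2. The difference was −1.64 for M4 vs. D1 (SE 0.91, 95% interval −3.54 to 0.26, adjusted p = 0.646) and −0.93 for the later stages together (SE 0.74, adjusted p = 0.648).

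OPALIN encodes a sialylated membrane glycoprotein that in the brain is made by oligodendrocytes, on chromosome 26 from 33916274 to 33930285. OPALIN at D1 was at 57.7, 87.3, 56.8, 8.57 and 81.6 FPKM. At M2 it was at 51.1, 66.9, 56.9, 37.3 and 61.7 FPKM, which as a ratio of highest to lowest, 1.79, was the narrowest range of any of the 9 genes in a stage. At M4 it was at 8.84, 18.7, 127, 70.9 and 56.3 FPKM. At M6 it was at 70.7, 63.6, 89.2, 13.1 and 89.9 FPKM. The medians of D1, M2 and M4 were 57.7, 56.9 and 56.3 FPKM and that of M6 was 70.7 FPKM, and the ranges of the stages overlapped. The difference of the later stages from D1 was 0.08 (SE 0.56, 95% interval −1.08 to 1.23, adjusted p = 0.968). Its sign turned when D1 replicate 4 was left out (−0.53) and when the 4 libraries high in markers of other regions were left out (−0.19).

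CNP encodes a cyclic nucleotide phosphodiesterase that keeps the cytoplasmic channels of the sheath open, on chromosome 19 from 41771224 to 41778402. At D1, CNP was at 589, 803, 716, 68.2 and 602 FPKM. At M2 it was at 102, 292, 312, 146 and 314 FPKM. At M4 the values were 24.6, 59.3, 251, 285 and 344 FPKM. As for CLDN11, 4 of the 5 D1 libraries were above every M2 and every M4 library. At M6, CNP was at 382, 296, 571, 46.8 and 433 FPKM, where the highest value, 571 FPKM, was still below those 4 D1 values, the lowest of which was 589 FPKM. The difference from D1 was −1.72 at M4 (SE 0.79, 95% interval −3.36 to −0.08) with an unadjusted p of 0.0410 and an adjusted p of 0.558, and for the later stages together it was −1.14 (SE 0.64, 95% interval −2.48 to 0.20, adjusted p = 0.498).

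ASPA encodes aspartoacylase, the enzyme that releases acetate from N-acetylaspartate for the synthesis of myelin lipids. It lies on chromosome 19 as well, from 24018930 to 24037078. At D1, ASPA was at 17.7, 20.2, 45.8, 8.43 and 58.0 FPKM. At M2 it was at 11.7, 35.8, 24.1, 20.9 and 26.7 FPKM. At M4 it was at 8.07, 19.0, 34.1, 41.0 and 50.3 FPKM, and at M6 at 86.3, 32.3, 79.8, 19.0 and 35.5 FPKM. The 2 highest values of ASPA in the 20 libraries, 86.3 and 79.8 FPKM, were both in M6 libraries, and its medians were 20.2, 24.1, 34.1 and 35.5 FPKM at D1, M2, M4 and M6, with overlap of all 4 ranges. The difference for M6 vs. D1 was 0.84 (SE 0.54, 95% interval −0.29 to 1.97, adjusted p = 0.741), and for the later stages together it was 0.27 (SE 0.44, adjusted p = 0.841). The sign of the latter turned to −0.10 without D1 replicate 4.

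Across the 6 comparisons between stages and that of the later stages together with D1, limma called 0 of the 9 genes, where a call needed an adjusted p under 0.05 with a change of 1 or more log2 units either way. The share of all 16771 genes called was 0.0% for M2 vs. D1, 0.0537% for M4 vs. D1, 0.00596% for M6 vs. D1, 0.0596% for the later stages vs. D1 and 0.0% for M4 vs. M2, M6 vs. M4 and M6 vs. M2. At an unadjusted p under 0.05, 2 of the 9 genes (CLDN11 and CNP) were lower at M4 than at D1, beside 8.71% of all genes in either direction and 6.21% lower. In the other 6 comparisons 0 of the 9 reached this p, beside 15.6% of all genes for M2 vs. D1, 7.41% for M6 vs. D1, 11.7% for the later stages vs. D1, 8.68% for M4 vs. M2, 6.87% for M6 vs. M4 and 6.14% for M6 vs. M2. The F test among M2, M4 and M6 also called 0 of the 9, with adjusted p-values between 0.705 and 0.962, and called 0.0% of all genes. The median log2 difference of the 9 genes was −0.52 for M2 vs. D1, −0.88 for M4 vs. D1 and −0.32 for M6 vs. D1, beside −0.07, −0.07 and −0.05 over all genes tested. These 3 comparisons share the D1 libraries.

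**Figure D2:**
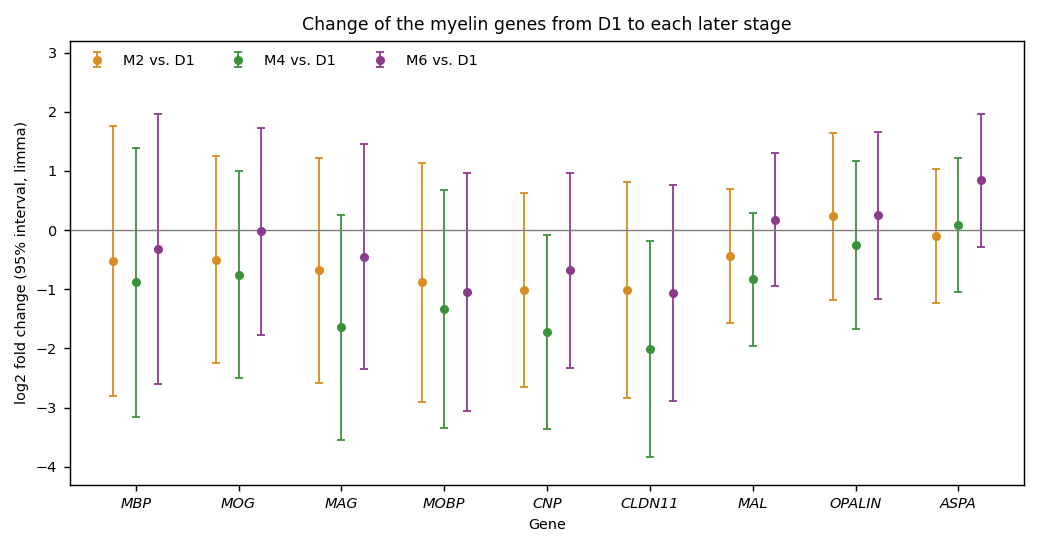
log2 fold change of each myelin gene from D1 to M2, M4 and M6, with 95% intervals from limma, 5 goats per stage. Of the 27 intervals all but those of CNP and CLDN11 for M4 vs. D1 include 0, and no adjusted p was under 0.05.

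The counts above hide how the D1 libraries were placed. At least 4 of the 5 D1 libraries were above every M2 library for 5 of the 9 genes (MBP, MOG, MOBP, CNP and CLDN11), beside 7.96% of all genes tested. The same was so against M4 for MAG, CNP and CLDN11, 3 of the 9, beside 5.51% of all genes, and against M6 for MOBP, CNP and CLDN11, 3 of the 9, beside 5.43%. This way of counting was chosen after the data were seen, and the genes of a library are not independent of each other. In no comparison with D1 were the groups of any of the 9 genes free of overlap, and for MBP and OPALIN at M4 and for MOG, MAL, OPALIN and ASPA at M6 no D1 library was above all later ones of that stage, whereas 3.82% of all genes did not overlap for M2 vs. D1, 1.93% for M4 vs. D1 and 2.84% for M6 vs. D1. Without D1 replicate 4 the difference of the later stages from D1 was −2.05 for CLDN11 (adjusted p = 0.302), −1.96 for MOBP (0.348), −1.80 for CNP (0.306), −1.66 for MAG (0.454) and −1.48 for MBP (0.598). Without the 4 libraries high in markers of other regions it was −1.61 for CLDN11 (adjusted p = 0.302), −1.47 for MOBP (0.362), −1.42 for CNP (0.307), −1.18 for MAG (0.425) and −0.87 for MBP (0.618). Other omissions made the differences smaller, to −0.27 for MBP and −0.65 for MAG without M4 replicate 1, −0.83 for MOBP without D1 replicate 5, −1.13 for CLDN11 without D1 replicate 3 and −0.91 for CNP without D1 replicate 2. The lowest values over all alternatives were −2.11 for MBP, −2.33 for MOBP and −1.87 for MAG with the mapping rate as a covariate and the replicate block. They were −2.44 for CLDN11 and −2.05 for CNP in the libraries with at least 20 FPKM of hypothalamus markers. At D1 that setting kept only replicates 1 and 3, and so left out D1 replicate 4. Without D1 replicate 4, or without the 4 libraries high in markers of other regions, 0 of the 9 genes were called in any comparison. The number of all genes called in the later stages vs. D1 rose from 10 to 34 in each case.

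The spread within a stage was larger for the myelin genes than for most genes. The pooled SD of log2(FPKM + 0.1) within stages was 1.93 for MBP, 1.70 for MOBP, 1.61 for MAG, 1.54 for CLDN11, 1.48 for MOG, 1.38 for CNP and 1.2 for OPALIN, while MAL (0.94) and ASPA (0.95) varied least. The median over all genes tested was 0.57, and the 9 genes stood between the 78.0th (MAL) and the 99.0th (MBP) percentile. Stage accounted for 3.34% (MBP) to 21.0% (CLDN11) of the sum of squares of a gene, beside a median of 18.2% over all genes. Without the 4 libraries high in markers of other regions, the SD was 1.18 for MBP, 1.07 for CLDN11 and 0.69 for MAL, between the 65.6th and the 89.4th percentile, with a median of 0.53 over all genes. The highest library of a stage exceeded the lowest 27.4-fold, 4.98-fold, 72.8-fold and 18.1-fold for MBP (D1, M2, M4 and M6) and 6.87-fold, 3.05-fold, 6.23-fold and 4.55-fold for ASPA.

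**Figure D3:**
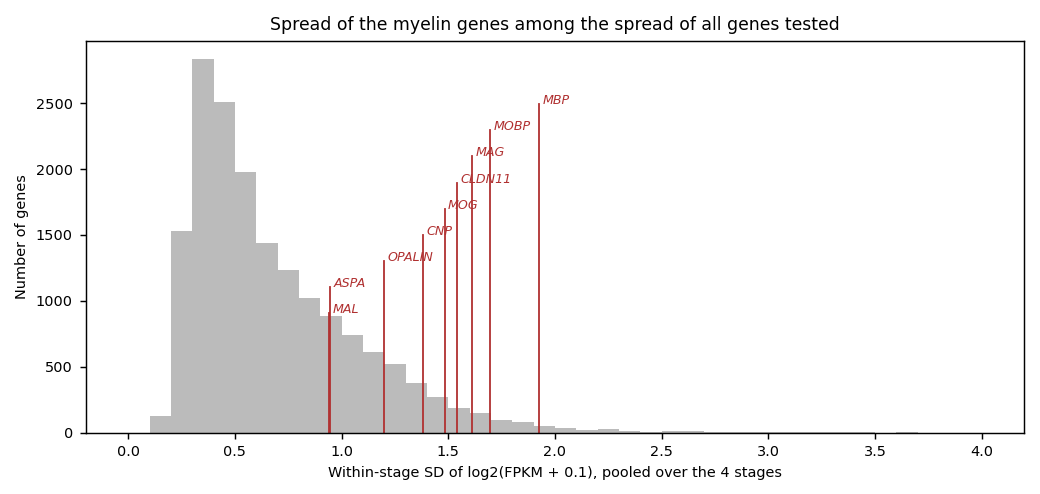
Number of genes (bars, 16771 genes tested) by their SD of log2(FPKM + 0.1) within stages, with the 9 myelin genes as red lines whose heights carry no value. The red lines run from 0.94 for MAL to 1.93 for MBP, to the right of the median of all genes at 0.57.

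The same goats were low for all the genes. D1 replicate 4, M4 replicate 1 and M6 replicate 4 were each the lowest library of their stage for 9 of the 9 genes. M4 replicate 2 and M6 replicate 2 were each the second lowest for 9 of 9. At M2 the lowest place was shared by replicate 1 (5 genes) and replicate 4 (4 genes). At the upper end the order was looser, and M6 replicate 3 was the highest of its stage for 6 genes, M4 replicate 5 for 5 and M4 replicate 3 for 4. After the stage means were taken out, the deviations of the 36 pairs of the 9 genes over the 20 libraries had Pearson correlations between 0.761 and 0.992 with a median of 0.941, and Spearman correlations between 0.626 and 0.979 with a median of 0.860. CLDN11 and CNP were the closest pair by Pearson's r (0.992), and ASPA was the loosest member, with r between 0.761 and 0.872. Leaving out the 2 libraries farthest from the median gave r between 0.580 and 0.986, leaving out the lowest library of each stage gave 0.356 to 0.975 with a median of 0.762, and leaving out the 4 libraries high in markers of other regions gave 0.440 to 0.984 with a median of 0.832. All values of a library share its dissection, its depth and its scaling to mapped reads, so these correlations describe the libraries and carry no p. The genes did not move by equal amounts: for 1 log2 unit of MBP, MOBP moved by 0.86, MAG by 0.79, CLDN11 by 0.74, MOG by 0.72, CNP by 0.67, OPALIN by 0.60, MAL by 0.45 and ASPA by 0.37.

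**Figure D4:**
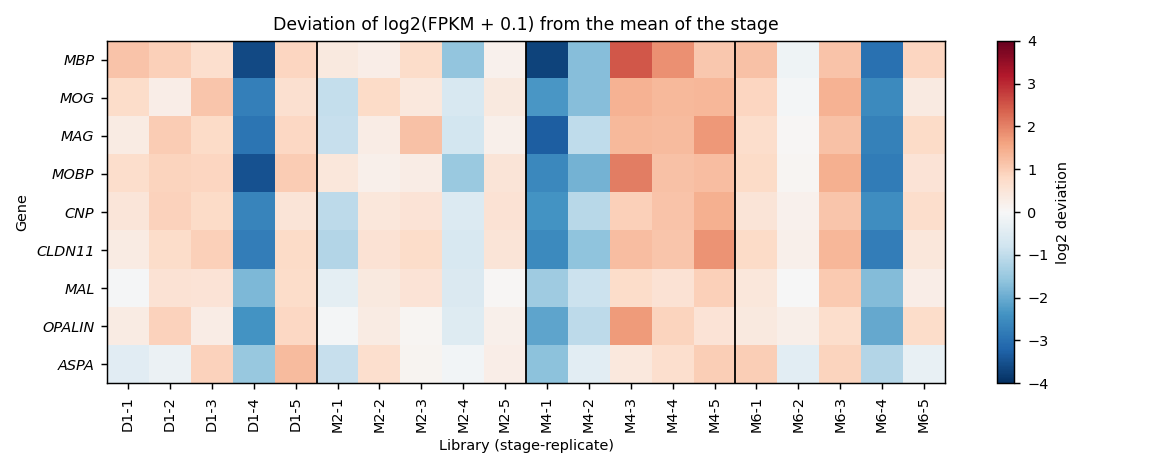
Deviation of log2(FPKM + 0.1) of each myelin gene from the mean of its stage (colour, log2 units, blue lower and red higher) in the 20 libraries, with black lines between stages. D1 replicate 4, M4 replicate 1 and M6 replicate 4 are blue for all 9 genes, and the paler rows of MAL and ASPA correspond to their SDs of 0.94 and 0.95.

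Of the markers of other cells and regions, some moved with the myelin genes within stages and others moved against them. The 8 genes of other brain regions summed to 254 FPKM in D1 replicate 4 and 92.9 FPKM in M4 replicate 1, the lowest libraries of their stages, but to 28.1 FPKM in M6 replicate 4. That library instead had OXT, the gene of oxytocin, at 413 FPKM, AVP at 201 FPKM and SIM1, a transcription factor of the neurons that make both hormones, at 13.6 FPKM. Over the 20 libraries the deviations of this list had r = −0.757 with those of MBP (Spearman −0.824, and −0.597 without 2 libraries). The mean r of the single genes of the list with the 9 myelin genes ran from −0.788 to 0.187. The 9 neuron genes summed to between 97.4 FPKM (M6 replicate 3) and 3124 FPKM (M4 replicate 1), with r = −0.477 with MBP, and the 8 astrocyte genes to between 2061 FPKM (M4 replicate 1) and 6750 FPKM (D1 replicate 5), with r = 0.744 (0.569 without 2 libraries). The astrocyte genes differed among themselves, and the mean r with the 9 myelin genes was 0.792 for GFAP, a filament protein, but −0.586 and −0.706 for the glutamate transporters SLC1A2 and SLC1A3. Microglia genes summed to between 52.9 and 264 FPKM (r = 0.478) and endothelial genes to between 34.9 and 161 FPKM (r = 0.555). Markers of hypothalamic neurons had r = −0.009 with MBP, those of pituitary 0.017 (at most 3.63 FPKM summed), those of choroid plexus and ependyma −0.287 and the one red blood cell gene tested, ALAS2, 0.052. Single genes had a mean r with the 9 myelin genes from −0.584 to 0.292 on the hypothalamus list and from −0.611 to 0.308 on the neuron list. The part of these cells and regions in the spread of the myelin genes was not tested.

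MBP, MAG, CNP and MAL are also used by Schwann cells, which make the myelin of peripheral nerves. All 5 Schwann cell genes on the list were measured, and their sum was between 6.56 and 63.8 FPKM. The deviations of the list had r = 0.677 with MBP over the 20 libraries (0.560 without 2), and of its members PMP22, the most abundant, had a mean r of 0.836 with the 9 myelin genes and the other 4 had 0.0265 to 0.334. Its part in the MBP level was not tested.

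The genes were also set against MBP in the same library, as a ratio. A ratio still moves with the MBP level where a gene moves less than MBP, and for ASPA it was highest in libraries low in MBP (0.345 in M4 replicate 1 and 0.336 in M6 replicate 4). Whether a ratio is over 1 also depends on the exon length used to scale each gene, which was not checked here. By FPKM, MOBP was above MBP in 5 of 5 libraries at D1, 4 of 5 at M2, 2 of 5 at M4 and 3 of 5 at M6. Its ratio to MBP was 1.07, 1.40, 1.68, 1.63 and 1.64 in D1 replicates 1 to 5, with a median of 1.63, and the medians were 1.19 at M2, 0.933 at M4 and 1.00 at M6. All 5 D1 libraries were above the median of the 15 later ones, 1.06, although M4 replicate 1 had the highest ratio of all, 2.33. The ratio of MOBP to MBP was 0.51 lower in the later libraries on the log2 scale (SD 0.28 among the D1 libraries and 0.47 among the later), with an unadjusted p of 0.0354 in a two-sided exact permutation test over 15504 assignments. It had an adjusted p of 0.995 over all 16770 genes, of which 0.912% had an unadjusted p under 0.05. All these ratios have MBP as the denominator, and those of genes that do not move with MBP carry its spread (SD 1.93). The share is therefore not a like background for MOBP. Leaving out single libraries moved the unadjusted exact p of MOBP between 0.00327 and 0.0820 (without D1 replicate 3), and it was 0.0176 without the 4 libraries high in markers of other regions.

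The ratio of CLDN11 to MBP had medians of 0.902, 0.837, 0.467 and 0.661 at D1, M2, M4 and M6, with a difference of −0.79 between the later libraries and D1 (exact permutation p = 0.0632, adjusted p = 0.995). For CNP the difference was −0.56 (p = 0.187 by the exact test) and for MAG −0.35 (exact p = 0.336). When the mapping rate was a covariate the signs of CNP (0.19) and MAG (0.10) turned, and with the replicate block added that of CLDN11 (0.10) turned as well while MOBP was at −0.23. OPALIN and ASPA differed in the other direction. OPALIN relative to MBP had medians of 0.0801, 0.139, 0.0869 and 0.111, a difference of 0.65 (exact p = 0.120), and ASPA had medians of 0.0515, 0.0601, 0.0775 and 0.0813, a difference of 0.85 (exact p = 0.224). MAL (0.21) and MOG (0.15) differed least. In limma, 0 of the 8 ratios were called and 0 had an unadjusted p under 0.05, beside 0.00596% and 0.352% of all genes, and the standard errors of the 8 ratios were all between 1.05 and 1.06. In that fit each variance is drawn toward those of all genes, whose ratios all have MBP as the denominator.

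**Figure D5:**
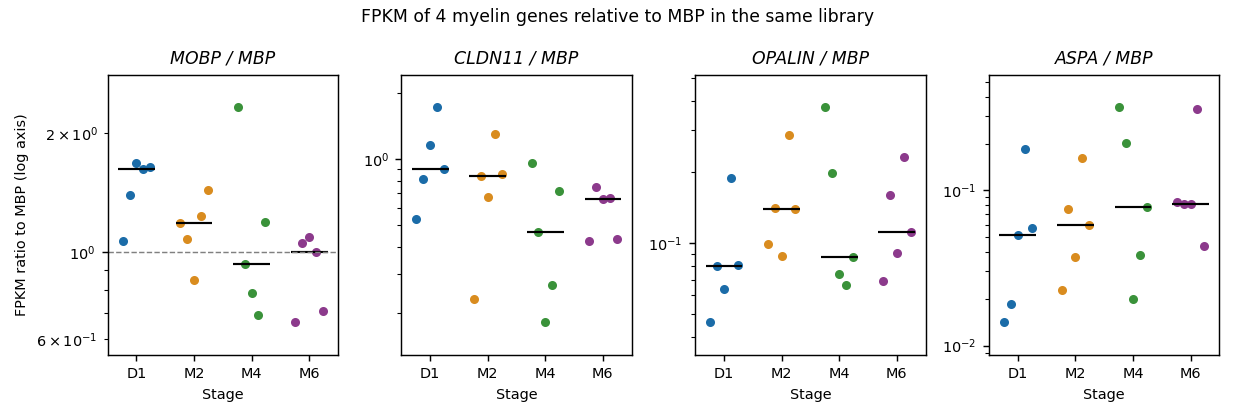
Ratio of the FPKM of MOBP, CLDN11, OPALIN and ASPA to that of MBP in the same library (log axis) by stage, 5 goats per stage, with the median as a bar and a dashed line at a ratio of 1 for MOBP. The D1 medians are 1.63, 0.902, 0.0801 and 0.0515, and all 5 D1 libraries are above 1 for MOBP.

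Other genes of mature oligodendrocytes and myelin were taken from a list of 30, of which 28 were tested and TF and SEPTIN4 were not analysed here. In the later stages vs. D1, limma called 0 of the 28 in either direction, beside 0.0596% of all genes, and 2 had an unadjusted p under 0.05, beside 11.7%, with a median log2 difference of −0.09 beside −0.07 over all genes. This list followed the 9 genes within stages, with a median over its members of 0.915 for the mean r with the 9 genes beside −0.07 over all genes, but TSPAN2 (−0.397), EDIL3 (0.554), QDPR (0.608) and NFASC (0.660) were lower. UGT8, the enzyme that makes the galactolipids of myelin, had medians of 567, 216, 260 and 230 FPKM at D1, M2, M4 and M6 and a difference of −1.21 (SE 0.72, adjusted p = 0.518). CD9, a tetraspanin of the outer sheath, had medians of 357, 158, 111 and 158 FPKM and a difference of −1.28 (SE 0.41, adjusted p = 0.236). HAPLN2, a link protein of the matrix at nodes of Ranvier, had medians of 21.0, 27.8, 28.3 and 62.0 FPKM and a difference of 0.92 (SE 0.64, adjusted p = 0.587). FA2H, which hydroxylates the fatty acids of myelin sphingolipids, was between 0.123 and 13.2 FPKM with a mean r of 0.933 with the 9 genes.

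By the mean correlation with the 9 genes over the 20 libraries after removal of stage means, the genes most like them among those with a mean of at least 1 FPKM were CERS2 (0.960), ERBB3 (0.958), GPR37 (0.955), TMC7 (0.955), ENPP2 (0.954), PLA2R1 (0.952), GLTP (0.948), UGT8 (0.948) and EFHD1 (0.946). CERS2, the ceramide synthase of very long acyl chains, ranged from 6.45 to 122.5 FPKM with medians of 100.4 at D1 and 50.1, 69.4 and 77.4 later, and GLTP, a glycolipid transfer protein, from 2.15 to 29.7 FPKM. GPR37, ENPP2 and UGT8 were on the list of other myelin genes, and the remaining 6 were on none. None of these 9 was called in the later stages vs. D1, with adjusted p-values between 0.518 and 0.978. For the 6 listed genes of the oligodendrocyte progenitor the mean r with the myelin genes was between 0.211 (LHFPL3) and 0.765 (VCAN). Their summed level was between 97.7 and 244 FPKM in the 20 libraries, and in M6 replicate 4 it was 217 FPKM beside 284 FPKM for the 9 myelin genes.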

How the data were processed

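Per the labels and the study's methods, the authors removed rRNA from total RNA of 20 hypothalami, made strand-specific libraries, trimmed the reads with fastp, aligned them to ARS1.2 with HISAT2 2.0.5 and assembled transcripts with StringTie 1.3.3b (tool versions from the submitters' processing notes), and deposited FPKM values for each gene. The strand setting of the counting is not given in the sources used here. No depth could be recovered from FPKM, so the precision rests on the spread between the 5 goats of a stage.

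Values were transformed to log2(FPKM + 0.1), a scale that understates the change of low genes, and genes that reached 0.1 FPKM in 5 or more libraries were fitted with limma 3.58.1 (R 4.3.3), 4 stages as groups, variances with a trend, without a block, and Benjamini-Hochberg adjustment over all 16771 genes. FPKM are not counts, so no count model was used. A call needed an adjusted p under 0.05 with a change of 1 or more log2 units either way. The fit and the exact permutation test were tested on simulated data. Positions are from RefSeq (ARS1.2), which matched 20610 of the 21071 gene IDs. Mapping rates, used as a covariate, were read from the study's supplementary tables. Values were summarised in Python 3.11.15 (scipy 1.17.1, numpy 2.4.6, pandas 2.3.3) and plotted with matplotlib 3.10.9.

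The 9 genes and all gene lists were chosen with earlier results of these data known. All 9 are named, as are list genes that were called or had one of the 3 largest changes of their list in the later stages vs. D1, with exceptions stated, and the 10 genes most like the 9, of which 1 is not reported here, nor are some marker genes. Alternatives were other pseudocounts, filters, scalings, variance models, library quality weights, the mapping rate as a covariate, the replicate block and leaving out libraries. Leaving out the 4 libraries high in markers of other regions, keeping only the libraries with hypothalamus markers, the MBP level as a covariate, the mean of the other 8 genes as reference and the exact test were added after the data were seen.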

Additional observations from a re-analysis of the deposited data

Results flagged for a closer look

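For each gene and each ratio to MBP, the 5 libraries of a stage were examined for a library far from the other 4, by Dixon's test on log2(FPKM + 0.1) or on the log2 ratio. Of 68 groups examined (36 of genes and 32 of ratios), 13 held such a library, where chance alone gives about 1 in 20, and the genes of a library are not independent. All 13 were low values of genes and fell in 3 goats. D1 replicate 4 stood apart in 7 genes, with MBP at 45.6, MOG at 6.91, MAG at 22.1, MOBP at 74.2, CNP at 68.2, CLDN11 at 78.9 and OPALIN at 8.57 FPKM. M2 replicate 4 stood apart in MBP at 130.3 and MOBP at 161 FPKM. M6 replicate 4 stood apart in MAG at 18.8, CNP at 46.8, CLDN11 at 37.5 and OPALIN at 13.1 FPKM. At M4, where replicates 1 and 2 were both low, no library stood apart.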

How the results depend on the processing

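The precision of all these values is limited by 5 goats per stage and by the spread between them. The number of reads behind a value is unknown. In every alternative, leaving out single libraries included, limma called 0 of the 9 myelin genes in each of the 7 comparisons and among M2, M4 and M6, and the smallest adjusted p of a fold change over all of them was 0.0859 (CLDN11, later stages vs. D1, library quality weights). The direction for the later stages vs. D1 was kept in every alternative by MBP, MOG, MAG, MOBP, CNP, CLDN11 and MAL. Libraries of the same replicate number were no more alike than others. Over the 30 same-numbered pairs the deviations from the group means had a median r of −0.011 (−0.246 to 0.430). Over the 120 pairs of other numbers it was 0.004 (−0.356 to 0.420). With the replicate block 0 genes were called in M6 vs. D1 and 13 in the later stages vs. D1, and no call of a myelin gene changed. The cause of the changes below was not tested.

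The number of all genes called, 0 for M2 vs. D1, 9 for M4 vs. D1, 1 for M6 vs. D1 and 10 for the later stages vs. D1, depended on the processing. Library quality weights, whose estimation stopped before it converged, gave 148, 65, 95 and 223 for these comparisons. Without the 4 libraries high in markers of other regions the counts were 17, 3, 23 and 34, with 1 for M4 vs. M2 and 1 for M6 vs. M4. Only the libraries with at least 20 FPKM of hypothalamus markers gave 3, 1 and 3 for M2, M4 and M6 vs. D1. That setting held only replicates 1 and 3 of D1. The mapping rate as a covariate gave 3 for M4 vs. D1, 0 for M6 vs. D1, 0 for the later stages and 1 for M6 vs. M2, and with the replicate block as well 0, 0 and 0 for the first 3 of these. With log2(FPKM + 1) there were 2 for M2 vs. D1, 0 for M6 vs. D1, 1 for M4 vs. M2 and 1 for M6 vs. M2, and with log2(FPKM + 0.01) or a mean FPKM of at least 1 there were 0 for M6 vs. D1. Median-ratio scaling gave 5, 2 and 1 for M4 vs. D1, M6 vs. D1 and the later stages, and quantile normalization 5 for M4 vs. D1 and 3 for the later stages. No filter on low values gave 1 for M2 vs. D1 and 2 for M6 vs. D1, variances without a trend 1, 3 and 6 for M2 vs. D1, M6 vs. D1 and the later stages, fits of only the groups compared 1, 0 and 0 for M2, M4 and M6 vs. D1, and leaving out the 3 libraries of lowest mapping rate 1 for M2 vs. D1 and 0 for M6 vs. D1. The exact test put 1 ratio to MBP (MOBP) under an unadjusted p of 0.05. Leaving out 1 library at a time gave 0 to 10 for M2 vs. D1, 3 to 33 for M4 vs. D1, 0 to 20 for M6 vs. D1, 1 to 34 for the later stages, 0 to 3 for M4 vs. M2 and 0 to 1 for M6 vs. M2, with each highest count against D1 reached without D1 replicate 4. The count for the later stages was 30 without M4 replicate 1, 5 without M2 replicate 4, 3 without M4 replicate 2, 2 without D1 replicate 3 or M4 replicate 3, and 1 without D1 replicate 1, D1 replicate 2, M6 replicate 1 or M6 replicate 2.

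None of the differences whose sign turned was called in any setting, and those in the report were as large as −0.88 for MBP in M4 vs. D1, and −0.79 for CLDN11 and −0.56 for CNP relative to MBP. OPALIN for M2 vs. D1, M6 vs. D1 and the later stages was −0.0717, −0.0583 and −0.13 with library quality weights, −0.67, −0.37 and −0.64 with the mapping rate as a covariate, −0.83, −0.49 and −0.77 with the replicate block added, −0.39, −0.17 and −0.40 in the libraries with hypothalamus markers, and −0.37, −0.41 and −0.19 without the 4 libraries high in other regions, which also gave 0.20 for M4 vs. D1. MAL for M6 vs. D1 was −0.0531, −0.31, −0.28, −0.18 and −0.27 in the same 5 settings and −0.0859 without the 3 libraries of lowest mapping rate. ASPA for M4 vs. D1 was −0.15 with the mapping rate, −0.0808 with the block added and −0.0295 in the libraries with hypothalamus markers, where the later stages gave −0.18. ASPA for M2 vs. D1 was 0.10 with quantile normalization and 0.17 without the 3 libraries of lowest mapping rate. MOG for M6 vs. D1 was 0.0078 with median-ratio scaling and 0.0809 with quantile normalization, and MBP for M4 vs. D1 was 0.0087 without the 4 libraries high in other regions. Relative to MBP in the later stages, CNP was 0.19 and MAG 0.10 with the mapping rate as a covariate, and CNP was 0.39, MAG 0.23 and CLDN11 0.10 with the block added. With the MBP level as a covariate, MAL was −0.10 and MOG −0.0092. With library quality weights the ratios of CLDN11 and MOBP had adjusted p-values of 0.0278 and 0.0490 at log2 differences of −0.87 and −0.70, under the size needed for a call. Leaving out 1 library at a time moved the fold changes of OPALIN between −0.37 and 0.46 for M2 vs. D1, −0.85 and 0.28 for M4 vs. D1, −0.35 and 0.76 for M6 vs. D1 and −0.53 and 0.31 for the later stages. The same left ASPA between −0.48 and 0.21 for M2 vs. D1, −0.29 and 0.50 for M4 vs. D1 and −0.10 and 0.59 for the later stages, MAL between −0.27 and 0.61, MAG between −1.18 and 0.22, MOG between −0.71 and 0.62 and MBP between −1.23 and 0.42 for M6 vs. D1, and MBP between −1.79 and 0.0409 for M4 vs. D1. The ratios to MBP ranged between −0.0940 and 0.67 for MAL and −0.0235 and 0.37 for MOG.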

Other observations

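Of 6 genes of the premyelinating oligodendrocyte, the stage between progenitor and myelin-forming cell, limma called 0 in the later stages vs. D1, beside 0.0596% of all genes, and 2 had an unadjusted p under 0.05, beside 11.7%. ENPP6, a choline phosphodiesterase of newly formed oligodendrocytes, had medians of 72.6, 9.16, 15.8 and 31.4 FPKM at D1, M2, M4 and M6, a log2 difference of −1.33 (SE 0.81, adjusted p = 0.531). GPR17, a receptor of the same cells, had medians of 6.63, 4.46, 2.57 and 2.12 FPKM, a difference of −1.05 (SE 0.58, adjusted p = 0.482). TMEM108 had medians of 7.44, 18.7, 16.3 and 12.5 FPKM, a difference of 1.04 (SE 0.34, adjusted p = 0.253). ENPP6 and GPR17 were not among the 2 genes with an unadjusted limma p under 0.05, whereas TMEM108, which was higher, was. Within stages ENPP6 had a mean r of 0.862 with the 9 myelin genes, GPR17 0.542 and TMEM108 −0.307.

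Of 7 transcription factors of the oligodendrocyte lineage, limma called 0 and 0 had an unadjusted p under 0.05, beside the same shares of all genes. SOX10, which drives myelin genes, was between 0.877 and 16.2 FPKM with a mean r of 0.923 with the 9 genes, OLIG2 was between 3.18 and 19.9 FPKM (0.904), and ST18 between 1.09 and 12.8 FPKM (0.870). MYRF (0.922), OLIG1 (0.867) and NKX2-2 (0.788) were also close, while ZNF488 was at −0.195. For the 6 progenitor genes, limma called 0 in the later stages vs. D1, and 1 had an unadjusted p under 0.05, beside 11.7% of all genes. PDGFRA had a log2 difference of −0.39 (SE 0.16, limma adjusted p = 0.345). Of the progenitor genes, PDGFRA was between 26.1 and 69.1 FPKM (mean r 0.346), CSPG4 between 0.477 and 4.60 FPKM (0.376) and LHFPL3 between 15.3 and 41.0 FPKM (0.211), while VCAN had a mean r of 0.765, and no test compared these lists.

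Of the other marker lists, limma called 0 genes in the later stages vs. D1 among those of neurons, astrocytes, microglia, endothelium, Schwann cells, hypothalamus, other brain regions, pituitary, and choroid plexus and ependyma. Of these 9 lists, choroid plexus and ependyma held 1 gene with an unadjusted p under 0.05 and the others 0, beside 11.7% of all genes. For M6 vs. D1, 4 of the 9 neuron genes had an unadjusted limma p under 0.05, beside 7.41% of all genes. The median log2 difference of the 9 was −1.11. For M6 vs. M4, 3 of the 9 did, beside 6.87%, with a median of −0.96. The summed level of the neuron genes was 97.4 FPKM in M6 replicate 3 and between 846 and 965 FPKM in the other M6 libraries. It was 3124 FPKM in M4 replicate 1. The part of these single libraries in the counts was not tested. The one red blood cell gene tested, ALAS2, the enzyme of haem synthesis in erythroid cells, was called lower, with medians of 0.940 FPKM at D1 and 0.165, 0 and 0 later (adjusted p = 0.00361). The call was lost in 3 of 33 alternatives, with the mapping rate as a covariate (adjusted p = 0.168), with the replicate block added to it (0.9996) and with log2(FPKM + 1), where the difference was −0.98.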
